A study of Mus musculus with 6 samples.

Results

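Toll-like receptors (TLRs) are the sensors with which macrophages (Mφs) recognise microbial molecules, and the genes described here encode the proteins that work directly beside them. They are the co-receptors Cd14 and Ly96, the adaptors Myd88, Tirap, Ticam1 and Ticam2, and the interleukin-1 receptor-associated kinases Irak1, Irak2, Irak3 and Irak4. The genes were taken from the count table by their symbol, and all 10 were found among its 41549 genes.

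CD14 binds bacterial lipopolysaccharide (LPS) and hands it to MD-2, the product of Ly96, which is held by TLR4 at the cell surface. Most TLRs and the interleukin-1 receptors then recruit MyD88, with TIRAP as its bridge at some of them, and MyD88 assembles with IRAK4, IRAK1 and IRAK2 into a complex called the myddosome that leads to NF-κB and inflammatory cytokines. TRIF, the product of Ticam1, is reached from TLR4 through TRAM, the product of Ticam2, and leads to TBK1, IKKε and type I interferons. IRAK-M, the product of Irak3, is a member of the kinase family known in Mφs as a brake on the MyD88 arm.

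The libraries came from wild type bone marrow-derived Mφs of C57Bl/6 N mice, grown from marrow with macrophage colony-stimulating factor (M-CSF). Unpolarized cells of both groups were transfected with a locked nucleic acid (LNA) antisense and a lipid reagent, and IL-4 with IL-13 was then added to polarize them toward M2, an anti-inflammatory phenotype. In the group αGlu the antisense was directed against the fragment 5′tRF-Glu(CTC), a piece of a glutamate tRNA that begins at its 5′ end, and in the group Ctr it was a control antisense. Each group had 3 libraries numbered in the labels. By the study's methods a replicate of primary cells is a preparation from a different animal, but the labels give neither the animal behind each library nor whether a Ctr and an αGlu library share one. No untransfected cells, no cells without the lipid reagent and no LPS-treated cells were analysed here, and the fragment itself was not measured in these mRNA libraries.

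The antisense is shown because it is what distinguishes the 2 groups. The study's table gives a target stretch of the fragment of 21 bases and an antisense of 20 bases, whose complement starts at base 2 of that stretch, counted from 1 at its 5′ end. The capitals mark the bases of the target that the antisense covers.
target: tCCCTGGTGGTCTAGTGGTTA
αGlu antisense: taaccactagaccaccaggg

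Total exon counts ranged from 17912831 to 30386653 per library, and the lowest count of any of the 10 genes in any library was 217. αGlu 1 stood apart from the other αGlu libraries. Over 11933 tested genes its log2 CPM, the counts scaled to a common depth, correlated at a Pearson r of 0.929 with both αGlu 2 and αGlu 3, which correlated with each other at 0.992, whereas r was 0.966 to 0.982 between αGlu 1 and the Ctr libraries. Each r was taken over genes, and genes do not count as replicates. The fits below are therefore given with all 6 libraries and without αGlu 1. That library was singled out from these same data, and leaving it out keeps only αGlu 2 and 3 against Ctr. The SE and adjusted p without αGlu 1 depend on that choice and are descriptive. The Mφ genes Csf1r, Adgre1 and Cd68 were abundant in every library, with Csf1r between 2400.3 and 3055 CPM. Several Mφ markers moved in opposite directions. Cd68 stood at 1990, 1237 and 1144 CPM in αGlu 1, 2 and 3 against 1809 to 2063 in Ctr. Adgre1 stood at 896, 1372 and 1595 CPM against 822 to 992, and Itgam at 324, 1035 and 1305 CPM against 425 to 534. Spi1 was lower in every αGlu library. The 6 markers of the IL-4 and IL-13 response did not move together. Retnla stood at 101, 0.0315 and 0.0367 CPM in αGlu 1, 2 and 3 against 245 to 540 in Ctr, and Ccl22 at 2.47, 1.61 and 0.9903 CPM against 9.57 to 13.04, so that αGlu 1 was below Ctr for both. Arg1 stood at 23.5, 1886 and 1792 CPM against 24.3 to 45.2 in Ctr, Mrc1 was higher in αGlu 2 and 3, and Chil3 and Pdcd1lg2 overlapped between the groups.

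Cd14 and Irak3 showed the widest differences among the 10 genes, and both were several times higher in αGlu 2 and 3 than in Ctr while αGlu 1 was not. The TRIF arm adaptors Ticam1 and Ticam2 were lower in αGlu 2 and 3, Myd88 was higher, and Ly96 was slightly higher in every αGlu library. Tirap, Irak1 and Irak2 differed little, and Irak4 hardly at all. A gene was called where edgeR's quasi-likelihood test gave a Benjamini-Hochberg adjusted p under 0.1 and the log2 fold change exceeded 1 in either direction. With all 6 libraries 0 of the 10 genes were called, as was the case for 0% of the 11933 genes tested, where no adjusted p was smaller than 0.149. An unadjusted p under 0.05 was reached by 5 of the 10, namely Cd14, Ly96, Myd88, Ticam1 and Irak3, beside 24.7% of all genes. Limma-voom called 0 genes as well, with 3101 at an unadjusted p under 0.05, while DESeq2 called 8.13% of its 13742 genes, and Cd14 and Irak3 among them. Without αGlu 1, edgeR called 2 of the 10 genes, Cd14 and Irak3, both higher, beside 8.05% of all genes called higher and 10.5% called lower. With no fold limit, 7 of the 10 passed the adjusted p without αGlu 1, beside 49.1% of all genes.

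**Figure D1:**
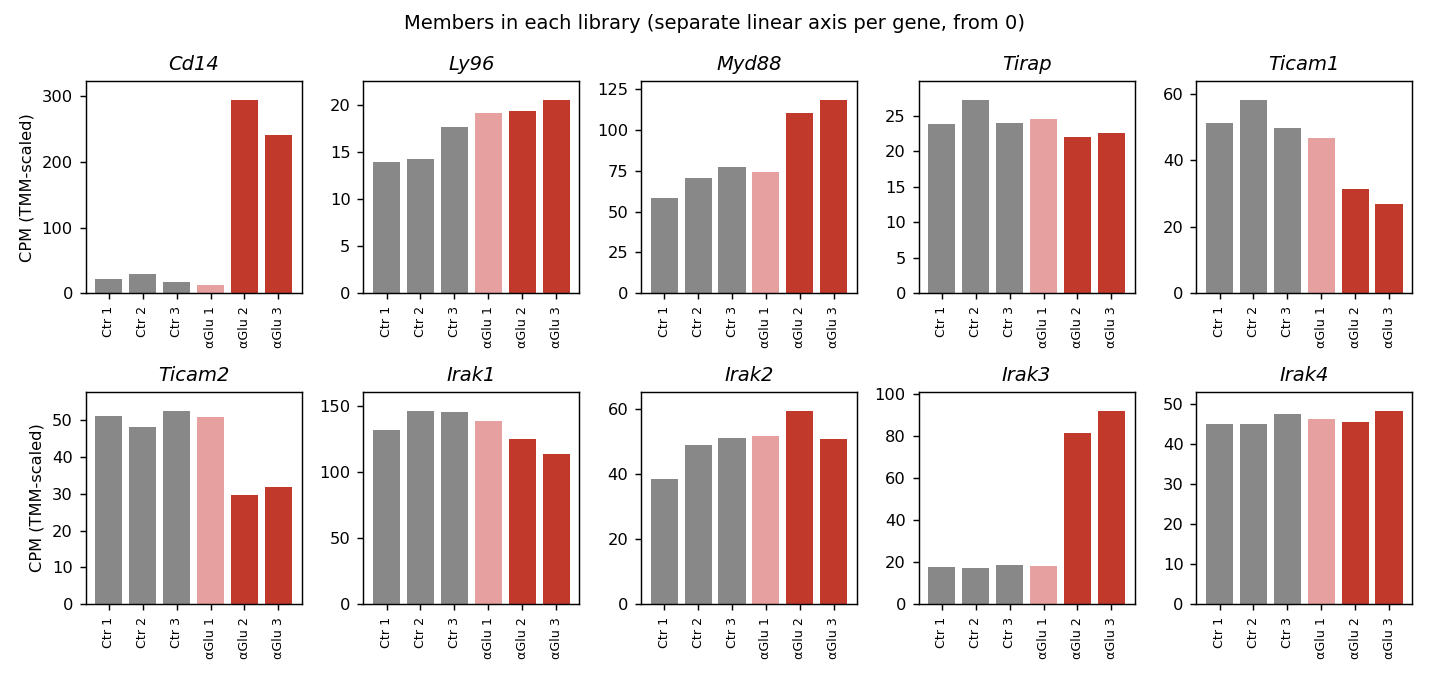
CPM of each of the 10 genes in each library, on a linear axis from 0 that differs between panels. Grey bars are Ctr, the pale red bar is αGlu 1 and the dark red bars are αGlu 2 and 3. Cd14 and Irak3 stood far above Ctr in αGlu 2 and 3 and not in αGlu 1, Ticam1 and Ticam2 were lower in αGlu 2 and 3, and Irak4 lay between 44.9 and 48.2 CPM throughout.

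The first question was whether the LPS-binding step differed when the fragment was targeted. Cd14 (ENSMUSG00000051439, chr18:36725067-36726798, minus strand) stood at 22.1, 30.1 and 17.3 CPM in Ctr 1, 2 and 3. In αGlu 1, 2 and 3 it stood at 12.4, 293 and 240.2 CPM. The groups overlapped, because αGlu 1 was the lowest of all 6 libraries while αGlu 2 and 3 were the highest. The mean of αGlu 2 and 3 was 11.5 times the Ctr mean, and αGlu 1 was 0.537 times that mean. The log2 fold change of αGlu over Ctr was 2.97 ± 1.03 (SE, n = 3 per group), with an adjusted p of 0.174 in edgeR's quasi-likelihood test. Without αGlu 1, Cd14 rose by a log2 fold change of 3.52 ± 0.23 (SE), with an adjusted p of 0.000138. DESeq2 called it on all 6 libraries, with an adjusted p of 0.0564. The SD of its log2 CPM was 2.55 among the αGlu libraries, against a median of 0.197 over all genes, and 0.401 among the Ctr libraries, against a median of 0.136.

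CD14 is also found on monocytes and, at lower levels, on neutrophils, so the markers of those cells were read beside it. In a bulk library fewer cells of a type and less RNA per cell cannot be told apart. Of the 9 neutrophil markers, Csf3r ranged from 103 to 158 CPM in Ctr and stood at 183, 536 and 607 CPM in αGlu 1, 2 and 3. The other 8 summed to between 1.48 and 5.93 CPM in Ctr and to 2.75, 2.42 and 1.43 CPM in αGlu 1, 2 and 3. Among those 8, 5 were under 1 CPM in every library, and Ly6g and Retnlg had 0 reads in all of them. This sum holds markers that went opposite ways. S100a8 stood at 2.11 and 1.32 CPM in αGlu 2 and 3 against 0.510 to 0.909 in Ctr, higher like Csf3r and Cd14. Mpo stood at 0.0944 and 0.0367 CPM in αGlu 2 and 3 against 0.418 to 2.59 in Ctr, and Ngp and S100a9 were also below Ctr there. The 3 monocyte markers summed to between 11.5 and 16.2 CPM in Ctr and to 3.27, 9.85 and 9.76 CPM in αGlu. They did not move together: Ccr2 stood at 0.409 and 0.844 CPM in αGlu 2 and 3 against 11.2 to 15.96 in Ctr, while Ly6c2 stood at 7.15 and 5.83 CPM against 0.0464 to 0.460. The part of these cells in the Cd14 values was not tested. The dendritic cell, lymphocyte, fibroblast and mast cell markers each summed to at most 3.59 CPM in any library.

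Ly96 (ENSMUSG00000025779, chr1:16688051-16709611, plus strand) stood at 13.99, 14.3 and 17.7 CPM in Ctr 1, 2 and 3, and at 19.2, 19.4 and 20.5 CPM in αGlu 1, 2 and 3. All αGlu libraries lay above all Ctr libraries, which was so for 14.2% of all genes tested. The gap between the groups was narrow, and the lowest αGlu library exceeded the highest Ctr library by less than the Ctr libraries differed among themselves. Its fitted log2 fold change was 0.36 ± 0.12 (SE), with an adjusted p of 0.163 in edgeR's quasi-likelihood test, and 0.38 ± 0.12 without αGlu 1, with an adjusted p of 0.0528. The co-receptors thus differed from each other in αGlu 1, where Ly96 was above and Cd14 below the whole Ctr range.

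Among the adaptors, Myd88 (ENSMUSG00000032508, chr9:119335934-119341411, minus strand) is shared by nearly all TLRs. It stood at 58.3, 70.3 and 77.4 CPM in Ctr 1, 2 and 3, and at 74.3, 109.99 and 118 CPM in αGlu 1, 2 and 3. αGlu 1 lay inside the Ctr range and αGlu 2 and 3 above it. For Myd88 the log2 fold change was 0.55 ± 0.20 (SE), with an adjusted p of 0.181 in edgeR's quasi-likelihood test, and 0.73 ± 0.13 without αGlu 1, with an adjusted p of 0.00564 and a fold below the limit for a call. Of the exonic bases of Myd88, 11.3% overlap Acaa1a, a peroxisomal thiolase gene on the opposite strand, in the GENCODE M21 annotation. Acaa1a stood at 76.9, 78.2 and 73.1 CPM in Ctr, against 66.9, 128 and 129 CPM in αGlu, and reads of the shared bases cannot be told apart, since the sources used here do not say whether strand was used in counting.

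Tirap (ENSMUSG00000032041, chr9:35184551-35200291, minus strand), the bridge that brings MyD88 to TLR2 and TLR4, stood at 23.9, 27.2 and 23.9 CPM in Ctr, against 24.6, 22.1 and 22.6 CPM in αGlu. αGlu 2 and 3 were the lowest libraries, but the distance was smaller than the range within Ctr. The fit gave Tirap a log2 fold change of -0.12 ± 0.09 (SE), with an adjusted p of 0.432 in edgeR's quasi-likelihood test, and -0.17 ± 0.09 without αGlu 1.

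The adaptors of the TRIF arm had fold changes of the opposite sign to that of Myd88. Ticam1 (ENSMUSG00000047123, chr17:56269319-56276786, minus strand) stood at 51.1, 58.01 and 49.6 CPM in Ctr 1, 2 and 3, and at 46.7, 31.3 and 26.96 CPM in αGlu 1, 2 and 3. All αGlu libraries lay below all Ctr libraries, which was so for 15.9% of all genes tested, although αGlu 1 was close to the lowest Ctr library. For Ticam1 the log2 fold change was -0.60 ± 0.21 (SE), with an adjusted p of 0.176 in edgeR's quasi-likelihood test. Without αGlu 1 it was -0.86 ± 0.11, with an adjusted p of 0.00144 and a fold below the limit for a call.

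Ticam2 (ENSMUSG00000056130, chr18:46557291-46574533, minus strand) stood at 51.1, 48.2 and 52.5 CPM in Ctr, against 50.9, 29.7 and 31.98 CPM in αGlu. αGlu 1 could not be separated from Ctr, while αGlu 2 and 3 were each lower than every other library. The fit gave Ticam2 a log2 fold change of -0.43 ± 0.21 (SE), with an adjusted p of 0.253 in edgeR's quasi-likelihood test, and -0.72 ± 0.08 without αGlu 1, with an adjusted p of 0.000874. Ticam2 shares 14.5% of its exonic bases with Tmed7, a neighbour on the same strand that encodes a protein of secretory transport. Tmed7 ranged from 125 to 149.5 CPM in Ctr and stood at 143, 119.6 and 124 CPM in αGlu (log2 fold change -0.10), and reads of the shared bases cannot be assigned here.

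Among the kinases, Irak4 (ENSMUSG00000059883, chr15:94543643-94581815, plus strand), the first kinase of the myddosome, was the steadiest of the 10 genes. It stood at 44.9, 44.9 and 47.3 CPM in Ctr, against 46.2, 45.4 and 48.2 CPM in αGlu. Its log2 fold change was 0.03 ± 0.06 (SE), with an adjusted p of 0.801 in edgeR's quasi-likelihood test, and it was 0.03 ± 0.07 without αGlu 1. Over all alternatives it lay between 0.00495 and 0.11. A partner on the opposite strand, Twf1, which encodes an actin-binding protein, covers 7.87% of its exonic bases and stood at 93.9, 88.9 and 91.0 CPM in Ctr, against 86.8, 151 and 183 CPM in αGlu.

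Irak1 (ENSMUSG00000031392, chrX:74013914-74023918, minus strand), a kinase that IRAK4 activates, stood at 132, 146 and 145 CPM in Ctr, against 138, 125 and 113 CPM in αGlu. αGlu 2 and 3 were the lowest libraries and αGlu 1 lay inside the Ctr range. For Irak1 the fitted change was -0.17 ± 0.10 (SE) on the log2 scale, with an adjusted p of 0.335 in edgeR's quasi-likelihood test, and -0.25 ± 0.09 without αGlu 1, with an adjusted p of 0.0754. Irak2 (ENSMUSG00000060477, chr6:113638467-113695026, plus strand), which sustains the signal after IRAK1, stood at 38.4, 48.9 and 51.04 CPM in Ctr, against 51.8, 59.5 and 50.8 CPM in αGlu. The groups overlapped, since αGlu 3 was below Ctr 3. The log2 fold change was 0.23 ± 0.13 (SE), with an adjusted p of 0.303 in edgeR's quasi-likelihood test, and 0.25 ± 0.14 without αGlu 1, with an adjusted p of 0.193.

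Irak3 (ENSMUSG00000020227, chr10:120141648-120202130, minus strand), the inhibitory member of the family, stood at 17.7, 17.2 and 18.5 CPM in Ctr 1, 2 and 3. In αGlu 1, 2 and 3 it stood at 18.2, 81.1 and 91.7 CPM. αGlu 1 lay inside the Ctr range, which was narrow, and αGlu 2 and 3 were far above it. The mean of αGlu 2 and 3 was 4.85 times the Ctr mean, and αGlu 1 was 1.02 times that mean. The log2 fold change was 1.84 ± 0.57 (SE), with an adjusted p of 0.161 in edgeR's quasi-likelihood test. Without αGlu 1, Irak3 rose by a log2 fold change of 2.27 ± 0.08 (SE), with an adjusted p of 2.0e-05, and DESeq2 called it on all 6 libraries with an adjusted p of 0.0141. Tmbim4 on the opposite strand covers 5.22% of the exonic bases of Irak3 and ranged only from 57.8 to 69.1 CPM over the 6 libraries.

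**Figure D2:**
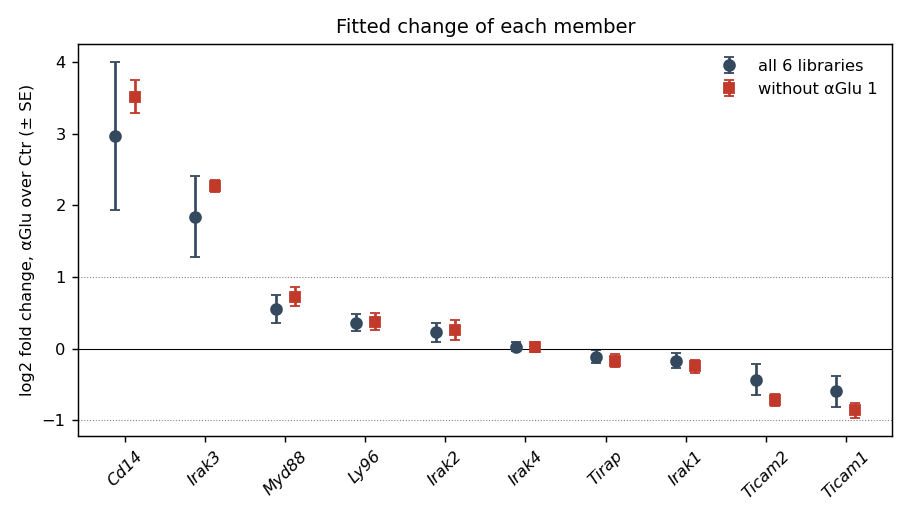
Log2 fold change of αGlu over Ctr for each of the 10 genes with its standard error, ordered by the value with all 6 libraries. Circles are the fit with all 6 libraries, squares the fit without αGlu 1, and the dotted lines are the fold limit of a call. Only Cd14 and Irak3 passed the dotted lines, and their standard errors shrank from 1.03 to 0.23 and from 0.57 to 0.08 without αGlu 1.

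Read together, 6 of the 10 genes had a fold change above 0 and 4 below it with all 6 libraries, with a median log2 fold change of 0.13 beside 0.02 over all genes tested. Without αGlu 1 these medians were 0.14 and 0.01. αGlu 2 and 3 both lay above every Ctr library for 4 of the genes, namely Cd14, Ly96, Myd88 and Irak3, beside 33.6% of all genes. They lay below every Ctr library for another 4, Tirap, Ticam1, Ticam2 and Irak1, beside 32.2% of all genes. αGlu 1 lay inside the Ctr range for 6 of the 10, beside 42.6% of all genes. With αGlu 1 included, the groups did not overlap for 2 of the 10, Ly96 and Ticam1, beside 30.2% of all genes. Over all alternatives of edgeR, DESeq2 and voom the adjusted p ranged from 0.000138 to 0.438 for Cd14 and from 2.0e-05 to 0.427 for Irak3. It ranged from 0.0528 to 0.433 for Ly96, from 0.00564 to 0.454 for Myd88, from 0.00144 to 0.445 for Ticam1 and from 0.000874 to 0.556 for Ticam2. The lowest adjusted p of Tirap, Irak1, Irak2 and Irak4 over these alternatives were 0.181, 0.0754, 0.189 and 0.386.

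Levels of different genes were compared as TPM, the deposited transcript abundance that the authors scaled by gene length. In Ctr, Irak1 was the most abundant of the 10 at 89.997 ± 3.50 TPM, followed by Myd88 at 80.3 ± 10.2 TPM (SD, n = 3), and these overlapped. Ticam1 at 53.3 ± 4.13 TPM, Ly96 at 45.2 ± 5.68 TPM and Cd14 at 40.3 ± 11.1 TPM formed a middle tier of neighbours that overlapped. Irak2, Irak4 and Ticam2 came next at 31.5 ± 4.11, 27.5 ± 0.765 and 26.4 ± 1.36 TPM. The lowest were Tirap at 15.3 ± 1.001 TPM and Irak3 at 14.6 ± 0.569 TPM, near the middle of all genes tested, where Irak3 held percentiles 47.5 to 49.05. Of the neighbours in this order, the pairs that did not overlap between Ctr libraries were Myd88 with Ticam1 and Ticam2 with Tirap. The order was the same in the deposited RPKM values.

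In αGlu 2 and 3 the order differed. Cd14 was at 542 and 456 TPM, above the other 9 genes. Irak3 was at 70.6 and 82.0 TPM, above Ly96, Irak2, Irak4, both TRIF arm adaptors and Tirap. In αGlu 3 Irak3 was also above Irak1, which was at 78.9 TPM. The 10 genes summed to between 401 and 440 TPM in Ctr and to 432, 1032 and 966 TPM in αGlu 1, 2 and 3. Cd14 made up between 6.89% and 11.8% of that sum in Ctr, 5.15% in αGlu 1, and 52.6% and 47.2% in αGlu 2 and 3. The rest of the higher sum came from Myd88, Irak3 and, to a smaller extent, Ly96 and Irak2.

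**Figure D3:**
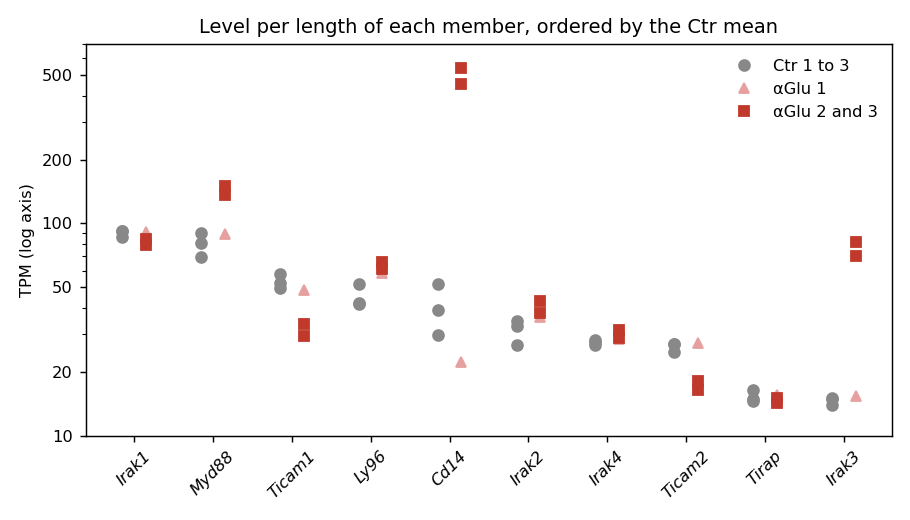
TPM of each of the 10 genes in each library on a log axis, ordered by the Ctr mean. Grey circles are Ctr, pale triangles αGlu 1 and red squares αGlu 2 and 3. Cd14 went from the middle of the order in Ctr to its top in αGlu 2 and 3, and Irak3 left the bottom of the order, where it stood at 14.6 ± 0.569 TPM in Ctr.

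Since these proteins work in complexes, the proportion between partners was read within each library as a ratio of TPM, which does not depend on the scaling between libraries. Cd14 over Ly96 was 0.930, 1.24 and 0.576 in Ctr and 0.383, 8.90 and 6.91 in αGlu 1, 2 and 3. Myd88 over Ticam1, an adaptor of each arm, was 1.33, 1.41 and 1.81 in Ctr and 1.85, 4.08 and 5.08 in αGlu. The αGlu libraries all exceeded the Ctr libraries in this ratio, although αGlu 1 exceeded Ctr 3 by little. Ticam1 over Ticam2, the 2 adaptors of the TRIF arm, was 1.93, 2.33 and 1.83 in Ctr and 1.77, 2.04 and 1.63 in αGlu, with groups that overlapped. The inhibitory Irak3 over Irak4 was 0.539, 0.523 and 0.533 in Ctr and 0.537, 2.44 and 2.60 in αGlu. Irak3 over Irak1 was between 0.151 and 0.173 in Ctr and 0.169, 0.833 and 1.04 in αGlu. The transcripts of Irak3 thus exceeded those of Irak4 in αGlu 2 and 3 and in no other library.

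**Figure D4:**
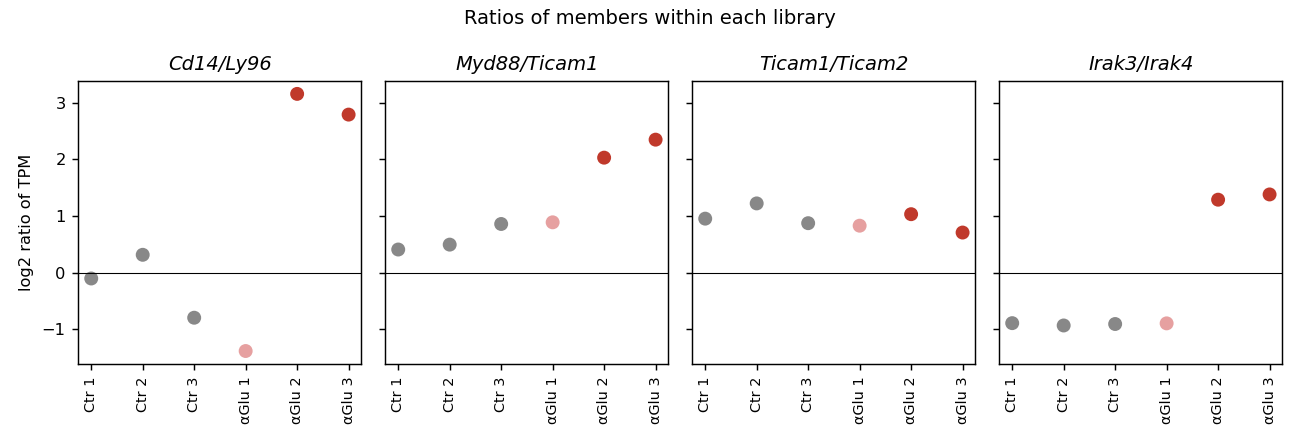
Log2 ratio of TPM of 4 gene pairs in each library, with Ctr in grey, αGlu 1 in pale red and αGlu 2 and 3 in dark red. A value of 0 means equal TPM. Cd14 over Ly96, Myd88 over Ticam1 and Irak3 over Irak4 stood highest in αGlu 2 and 3, whereas Ticam1 over Ticam2 overlapped between the groups.

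Promoter windows from 250 bases before to 50 bases after the start of a transcript were searched for 7 motifs on both strands, because several of these genes are known to be induced by inflammatory signals. RefSeq entries on GRCm38.p6 were used for 7 of the genes, Myd88, Tirap, Ticam1 and the 4 kinases. The motifs were the NF-κB consensus, GAS (TTCNNNGAA), the STAT6 site (TTC and GAA with 4 bases between), the ISRE core (GAAA and GAAA with 2 bases between), AP-1 (TGANTCA), CRE (TGACGTCA) and C/EBP (TTGCNNAA), which occur in 6.93%, 8.29%, 6.94%, 3.43%, 7.82%, 1.79% and 10.8% of 32807 promoter windows of the same length. Among the windows used, Myd88 had a GAS match at base -46 and an ISRE core match at base -40 from the RefSeq start used, and these overlap. That window lies wholly inside the annotated span of Myd88, whose outer end on this strand is at 119341411. The matches are therefore not at the outermost annotated start of the gene. One of the 2 Irak3 windows had a C/EBP match at base 8 on the opposite strand. The windows of the other 5 genes, Ticam1 included, held no match. A match is a description of the letters and not of binding. The windows of Myd88 (chr9:119339969-119340268, minus strand), Irak3 (chr10:120202081-120202380, minus strand) and Ticam1 (chr17:56276718-56277017, minus strand) are shown as those of the adaptor that was higher, the kinase that was higher and the adaptor that was lower in αGlu 2 and 3. The capitals mark the matches.
Myd88: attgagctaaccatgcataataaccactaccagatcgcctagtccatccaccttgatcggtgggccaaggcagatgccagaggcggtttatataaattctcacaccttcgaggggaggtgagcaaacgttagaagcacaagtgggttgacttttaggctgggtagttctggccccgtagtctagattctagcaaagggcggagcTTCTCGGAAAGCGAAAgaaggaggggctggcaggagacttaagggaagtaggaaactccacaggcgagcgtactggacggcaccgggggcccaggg
Irak3: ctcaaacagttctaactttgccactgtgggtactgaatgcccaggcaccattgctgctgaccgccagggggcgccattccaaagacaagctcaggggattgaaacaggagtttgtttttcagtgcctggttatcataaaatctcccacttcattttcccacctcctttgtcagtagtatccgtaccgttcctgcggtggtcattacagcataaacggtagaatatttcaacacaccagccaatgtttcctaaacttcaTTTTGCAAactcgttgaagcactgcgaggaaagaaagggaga
Ticam1: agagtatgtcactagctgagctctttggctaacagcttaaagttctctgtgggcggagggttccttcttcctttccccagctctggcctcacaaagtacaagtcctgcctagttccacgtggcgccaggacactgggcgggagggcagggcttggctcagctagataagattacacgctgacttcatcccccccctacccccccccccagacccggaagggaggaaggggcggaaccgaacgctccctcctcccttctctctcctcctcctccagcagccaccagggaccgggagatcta

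The surrounding pathway was described with 7 gene lists, for which 0 genes were called with all 6 libraries, like the 0% of all genes. The genes named first are the 2 with the smallest unadjusted p of each list. Of the 12 TLR genes 10 were tested, with a median log2 fold change of 0.16 with all 6 libraries and without αGlu 1. Tlr3, the receptor for double-stranded RNA that uses TRIF alone, was higher in every αGlu library, at 17.6, 25.5 and 35.1 CPM in Ctr and 44.8, 47.7 and 45.4 CPM in αGlu, a log2 difference of 0.82 ± 0.24 (SE) and without αGlu 1 of 0.83 ± 0.25. Tlr2, the receptor for bacterial lipopeptides, was high in the libraries in which Cd14 and Irak3 were high, at 14.9, 12.7 and 20.04 CPM in Ctr and 16.3, 92.8 and 88.5 CPM in αGlu, and it rose without αGlu 1 by a log2 fold change of 2.51 ± 0.18 (SE), with an adjusted p of 0.000174 in edgeR's quasi-likelihood test. Of the 10 tested, 1 was called higher and 2 lower without αGlu 1, beside 8.05% and 10.5% of all genes. Tlr11, among those called lower, stood at no more than 1.58 CPM in any library.

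Of the 9 TLR accessory and trafficking genes 8 were tested, with a median of -0.25, or -0.20 without αGlu 1. Hsp90b1, the chaperone gp96 that folds TLRs, stood at 902, 770.4 and 827 CPM in Ctr and 693, 477 and 507 CPM in αGlu, with a fitted log2 fold change of -0.58 ± 0.18 (SE) and without αGlu 1 of -0.77 ± 0.11. Rftn1 had a log2 fold change of -0.18 ± 0.07 (SE), or -0.20 ± 0.08 without αGlu 1. For both, the αGlu libraries all lay below the Ctr libraries. Without αGlu 1, 2 of 9 were called lower and 0 higher, beside 10.5% and 8.05% of all genes. The median of -0.20 is over these 9, to which Lbp was added. Its counts were 4, 6 and 9 in Ctr and 4, 18 and 10 in αGlu.

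The IL-1 receptor family shares MyD88 and the IRAKs with the TLRs, and 5 of its 7 genes were tested, with a median of 0.65. The median was 1.49 over the 6 genes tested without αGlu 1. The added gene was Il1r2, with counts of 1, 1 and 1 in Ctr and 0, 14 and 13 in αGlu. It passed the filter only through αGlu 2 and 3, where it was high. Over the same 5 genes the median without αGlu 1 was 0.87, the value of Il1rl2. Without Ctr 1 the median was 1.16, over the genes that passed the filter in that fit, which need not be the same 5. Il1r1, the receptor of IL-1, stood at 3.09, 3.01 and 2.78 CPM in Ctr and 2.18, 39.1 and 43.98 CPM in αGlu, with a fitted log2 fold change of 3.27 ± 0.99 (SE) and without αGlu 1 of 3.80 ± 0.10. Il1rl1, the receptor of IL-33, stood at 7.54, 3.18 and 2.55 CPM in Ctr and 0.574, 0.283 and 0.220 CPM in αGlu, lower in every αGlu library, with a log2 fold change of -3.67 ± 0.60 (SE) and without αGlu 1 of -4.10 ± 0.66. Without αGlu 1, 3 of these genes were called higher and 2 lower, beside 8.05% and 10.5% of all genes. Il1r2 was among those called higher, so that call is no separate evidence.

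All 21 downstream kinases, ligases and IRFs were tested, with a median of 0.12, or 0.16 without αGlu 1, and 0 of them were called without αGlu 1, beside 18.6% of all genes. With all 6 libraries 6 of the 21 had αGlu libraries that all lay above Ctr, beside 14.2% of all genes, among them the kinases of the TRIF arm, Ikbke at a log2 fold change of 0.42 ± 0.11 (SE) and Tbk1 at 0.39 ± 0.12. Without αGlu 1 these were 0.48 ± 0.09 and 0.47 ± 0.10. Irf7 and Chuk were also among the 6. Irf7 stood at 43.9, 475 and 559 CPM in Ctr, with Ctr 1 far below the others, and at 757, 1095 and 1005 CPM in αGlu. Chuk had a log2 fold change of only 0.12. Of the 12 negative regulators and other TIR proteins 11 were tested, with a median of 0.16, or 0.23 without αGlu 1, and 3 were called higher and 0 lower without αGlu 1, beside 8.05% and 10.5% of all genes. Socs1, an inhibitor of cytokine signalling, stood at 7.27, 8.94 and 9.23 CPM in Ctr and 12.2, 38.6 and 39.6 CPM in αGlu, with a fitted log2 fold change of 1.83 ± 0.45 (SE) and without αGlu 1 of 2.20 ± 0.11. Zc3h12a, an RNase that degrades cytokine transcripts, had a log2 fold change of 1.28 ± 0.37 (SE), or 1.60 ± 0.09 without αGlu 1. Irak3 was not placed in this list, although its product is also an inhibitor.

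Among 12 target genes of the MyD88 arm 9 were tested, with a median of 2.32. Ptgs2, the inducible cyclooxygenase, stood at 2.86, 2.63 and 2.74 CPM in Ctr and 4.01, 73.3 and 55.9 CPM in αGlu. Acod1, which makes itaconate, stood at 3.63, 8.40 and 11.1 CPM in Ctr and 11.2, 732 and 858 CPM in αGlu. Without αGlu 1, 9 of the 11 then tested were called higher and 0 lower, beside 8.05% and 10.5% of all genes, with a median of 2.86. The added genes were Il6, at counts of 42 and 30 in αGlu 2 and 3, and Cxcl1, at 134 and 77. They passed the filter only through these libraries, where they were high, so their calls as higher are no separate evidence. Over the same 9 genes as before the median was 2.76, the value of Nfkbiz. Without Ctr 1 the median was 3.04, over the genes that passed the filter in that fit, which need not be the same 9. Of the 7 target genes of the TRIF arm 6 were tested, with a median of 0.67. Ccl5 stood at 3.59, 7.86 and 13.5 CPM in Ctr and 274, 1090 and 1031 CPM in αGlu, so that αGlu 1 too was far above Ctr. Its log2 fold change was 6.59 ± 0.83 (SE), or 6.99 ± 0.52 without αGlu 1. Cxcl10, an interferon-induced chemokine, stood at 0.182, 0.0836 and 0.371 CPM in Ctr and 0.459, 7.43 and 5.13 CPM in αGlu. The other 4 tested, the interferon-induced Ifit1, Ifit2, Ifit3 and Isg15, overlapped between the groups. In each of them Ctr 1 was far below the other Ctr libraries, as for Ifit2, which stood at 66.2, 679.9 and 714 CPM in Ctr and 1089, 324 and 247 CPM in αGlu. Ifit3 stood at 23.99, 437 and 467 CPM in Ctr and 609.7, 274 and 199 CPM in αGlu, so that for both genes αGlu 2 and 3 lay below Ctr 2 and 3 and above Ctr 1. Without αGlu 1 the log2 fold change was -0.78 ± 0.87 (SE) for Ifit2 and -0.39 ± 1.01 for Ifit3. Ifit2, Ifit3 and the values of Ctr 1 were chosen after they were seen. Without αGlu 1, 2 of the 6 were called higher and 0 lower, beside 8.05% and 10.5% of all genes, and the median was 0.48. Without Ctr 1 the median was 0.19.

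**Figure D5:**
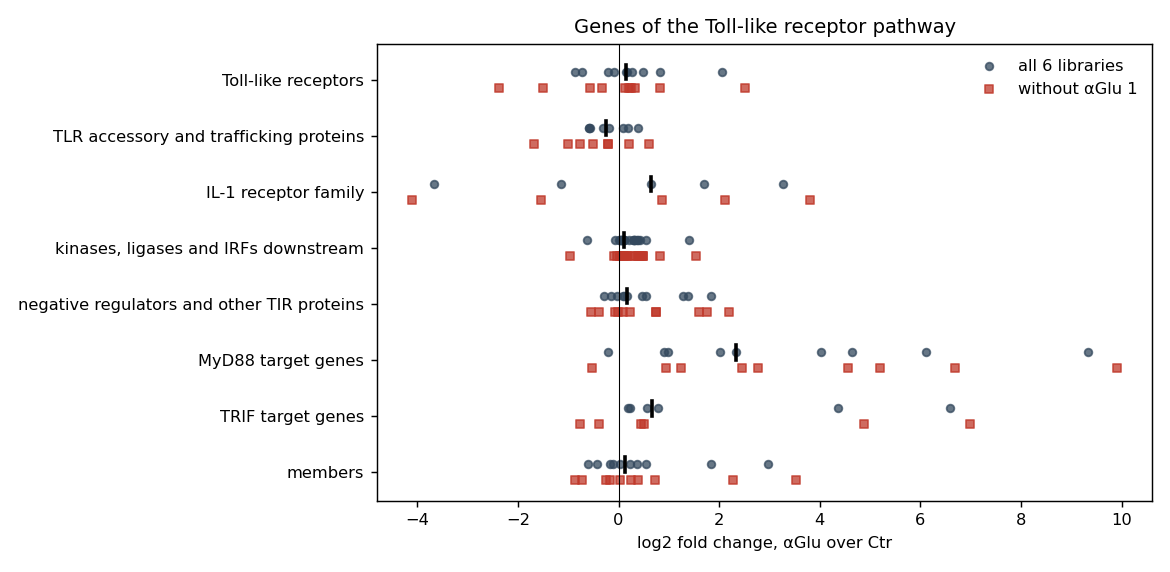
Log2 fold change of αGlu over Ctr for each gene of the 7 pathway lists and for the 10 genes (members, bottom line). Circles are the fit with all 6 libraries and squares the fit without αGlu 1 for the genes tested in both, and a black bar is the median with all 6 libraries. The medians were highest for the MyD88 target genes at 2.32 and were between -0.25 and 0.16 for the receptors, accessory proteins, downstream kinases and negative regulators.

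The genes whose pattern was most like that of the genes with the highest and the lowest fold change were found by the Pearson r of log2 CPM over the 6 libraries, among the 8576 genes whose mean log2 CPM was 3 or more. For Cd14 these were Slc2a1, the glucose transporter GLUT1, with r = 0.999, Slc39a14, a zinc and iron transporter, with r = 0.999, and Tuba4a, an α-tubulin, with r = 0.998. Slc2a1 stood at 53.7, 60.3 and 49.6 CPM in Ctr and 44.2, 144 and 126 CPM in αGlu, so it shared the order of Cd14 with a smaller span. For Ticam1 they were Dgkz, a diacylglycerol kinase, with r = 0.998, Plin3, a lipid droplet protein, with r = 0.997, and Atf3, a stress-induced transcription factor, with r = 0.997. Atf3 stood at 646, 764 and 643 CPM in Ctr and 521, 247 and 179.6 CPM in αGlu. The 6 points share the step between αGlu 2 and 3 and the other libraries, and 4.96% of the genes compared reached r above 0.95 with Cd14 and 7.14% with Ticam1.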

How the data were processed

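Poly(A) RNA libraries made with a stranded kit were sequenced on a NovaSeq instrument, and read annotation and normalization by the authors ran in QIAGEN's RNA-seq Analysis Portal. The submitters' processing notes name GRCm38, and the aligner, the gene annotation and the treatment of multi-mapped reads are not given in the sources used here. The authors' counts, as deposited, are whole reads per gene not normalized. Their RPKM values, also deposited, divide those reads by exon length and by depth. In the TPM values the authors deposited, reads per length are scaled to a common sum per library. A deposited CPM column was not used, and CPM here are counts over the library size scaled by trimmed mean of M-values (TMM) factors, with a prior count of 2 on the log2 scale. All 18 value columns used were matched to a library by name.

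The depth per library was 17912831 to 30386653 counts. Low counts were filtered with filterByExpr (minimum count 10, minimum total count 15) of edgeR 4.0.16 in R 4.3.3, and the 11933 genes left were fitted in 1 quasi-likelihood model with no term but the group. Two-sided p-values were adjusted over these genes by the Benjamini-Hochberg method, and a call needed an adjusted p below 0.1 together with a change of more than 1 on the log2 scale. Each standard error is the fold change divided by the square root of its F statistic. An exact permutation test of 3 libraries against 3 cannot go below 0.1 and was not used. The fit was tested on simulated data whose spread came from the Ctr libraries alone, with the same effect in every αGlu library. That test does not cover a group in which a library stands apart, as αGlu 1 did. Every pair of libraries differed beyond sampling noise (chi-square per gene 19.8 or more).

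The 10 genes, the lists, the markers and the rule for named genes were chosen with earlier results of these data known. The rule names the 10 genes, the 2 smallest unadjusted p of each pathway list, the 3 genes most like the members with the highest and the lowest fold change, and markers that reach 1 CPM in a group mean. Markers named at or near 0 fall outside it, chosen with their values in view. So do the list genes Il1r2, Il1rl2, Il6, Cxcl1, Nfkbiz, Lbp, Tlr11, Irf7 and Chuk. The alternatives comprised DESeq2 1.42.0, voom of limma 3.58.1, other scaling factors, other low-count filters, no fold limit, the replicate number as a block, RPKM in place of TPM, and each library left out in turn. Positions and exon overlaps are from GENCODE M21 on GRCm38, matched by gene identifier. The antisense was read from a supplementary table of the study. Sequence is shown for 3 genes only.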

Additional observations from a re-analysis of the deposited data

How the results depend on the processing

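With all 6 libraries edgeR's quasi-likelihood test called 0 genes, and it also called 0 with other scaling factors, other low-count filters or no fold limit, as did voom. DESeq2 called 1117 genes and 2 of the 10 genes, Cd14 and Irak3. Leaving out each library in turn gave between 0 and 2290 called genes and between 0 and 2 of the 10, where 2290 and 2 were reached without αGlu 1 and 0 without any one of the other 5. Library numbers are shared between the groups, but the deviations of same-numbered libraries correlated at only 0.0764, 0.0646 and 0.154 across genes, so the numbers were not taken as pairs. Every library correlated best with its own number, as a hint from the data and not the design, and the replicate block called 17 genes (0.142%) and 0 of the 10.

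Of 140 alternative fold changes of the 10 genes, 136 kept their direction and their side of the threshold and 4 passed it, those of Cd14 and Irak3 with DESeq2 and without αGlu 1. None reversed. The log2 fold change lay between 1.86 and 3.52 for Cd14 and between 1.49 and 2.27 for Irak3. Scaling by library size alone gave an all-gene median of 0.10 in place of 0.02. The lowest count of the 10 genes was 217. What sets αGlu 1 apart was not tested. List medians without Ctr 1 were added after seeing the data.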
